A study of Drosophila melanogaster with 4 samples.

Results

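The regions described here are 1500 stretches of the fly genome, each at least 2000 and under 5000 bp wide, that carried the histone mark H3K79me1 in adult heads. They were selected on measured values. Each is an enriched region of the list made from both ChIP replicates together, lies on chromosome arm 2L, 3L or 3R, and shares at least 1 bp with a region of each replicate's own list. They are 1500 of the 12942 enriched regions in the combined list. The width, the position and the overlap that chose them are given below as description and carry no test, and neither does any other value, because all of them come from the same ChIP-over-input contrast.

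H3K79me1 was mapped by ChIP-seq in wild-type Oregon-R Drosophila melanogaster of a mixed adult stage, using 2 ChIP libraries from head nuclei, each paired with a library of input DNA. The flies were kept in population cages, their heads were collected with sieves, and the antibody was lot 1 of a commercial supplier. All libraries share this genotype, stage and tissue, so the comparisons lie between regions and between replicates. Whether the replicates started from separate batches of flies is not labelled, and their spread may be technical. A head holds neurons, glia, eye, muscle and fat cells. A weak region in many cells and a strong region in few cells cannot be told apart in such a mixture.

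H3K79me1 is the addition of a single methyl group to a lysine on the outer face of the nucleosome, in the folded core of histone H3 and not in its tail. Enzymes of the Dot1 family add it, and in flies this enzyme is the product of the gene grappa. In flies, as in mammals, methylation of this lysine is mostly found over the bodies of transcribed genes. Genes and sequences at the regions were not analysed here, because the coordinates are on FlyBase release 5 and the gene table at hand is on release 6.

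Of 2926 combined regions of this width on the 3 arms, 1500 were in both replicate lists (51.3%). Another 423 met replicate 1 alone, 653 met replicate 2 alone, and 350 met neither list. For all enriched regions of the combined list the share in both was 33.3%. These shares belong to the rule and say nothing more about the members. The members made up 5.10 Mb, or 6.76% of the 75.5 Mb of the 3 arms. They were 53.2% of the 2821 regions of these arms found in both replicate lists, and held 27.9% of the 10.2 Mb that lay in all 3 lists. Longer regions are fewer but hold more sequence, with 863 regions of 5 to 10 kb over 5.94 Mb and 368 of at least 10 kb over 6.43 Mb in both lists.

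The members spread over the whole width range and were not crowded at either limit. Their median width was 3333 bp (quartiles 2673 and 4088 bp). Regions of the same range that were not in both lists were narrower, with a median of 2671 bp. By width, 556 members had 2 to 3 kb, 525 had 3 to 4 kb and 419 had 4 to 5 kb. The narrowest members were on 3R from 12007594 to 12009594 (2001 bp) and on 2L from 5053220 to 5055222 (2003 bp), with log2 scores of 0.44 and 0.38. Just below the limit, 1999 bp on 2L from 6666124 to 6668122 scored 0.40, and 1999 bp on 2L from 12095974 to 12097972 scored 0.35. The widest members were on 3L from 20723790 to 20728788 (4999 bp, score 0.40) and on 3R from 18536728 to 18541720 (4993 bp, score 0.83). Just above the limit, 5001 bp on 2L from 21143636 to 21148636 scored 0.58, and 5005 bp on 2L from 569378 to 574382 scored 0.53. Widths were continuous across both limits.

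The score that the authors gave each region behaves as a log2 ratio with an unknown constant, so it orders regions within a list but does not set a level across lists. Members had a median score of 0.52 (quartiles 0.47 and 0.60, range 0.32 to 1.07). Regions of the same width range that were not in both lists had a median of 0.43, which is 0.09 lower. Their upper quartile of 0.46 was below the lower quartile of the members. Score and membership come from the same 2 libraries, so part of this gap, and of the shares by score below, is built in. In the combined list as a whole the median was 0.46, and 1193 members (79.5%) were above it. The median member stood at the 71.0th percentile of the list. By the same measure, regions of 5 to 10 kb in both lists stood at the 81.5th percentile with a median score of 0.58, and the 90 narrower regions in both lists at the 16.7th with 0.37.

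Wide and high-scoring regions were more often members, and within each width class the higher-scoring regions were members more often. In 4 equal classes of the 2 to 5 kb regions by score, 17.8%, 34.7%, 59.9% and 92.6% were in both lists from the lowest to the highest class. In the width classes named above, 36.7%, 60.3% and 77.3% were in both lists. Among regions of 2 to 3 kb, 56.4% of those at or above their median score were in both lists, against 17.1% of those below it. For 3 to 4 kb these shares were 85.8% and 34.6%, and for 4 to 5 kb they were 96.3% and 58.3%. The median that divides a class rose with width (0.45, 0.48 and 0.51), so the width classes were not compared at one level of score. Width and score were only weakly related among the members themselves, with a Spearman's rho of 0.27 across 1500 regions, which are not independent replicates. The narrowest region of each replicate list was 1301 bp wide, and the part of this minimum in the order of the width classes was not tested.

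**Figure D1:**
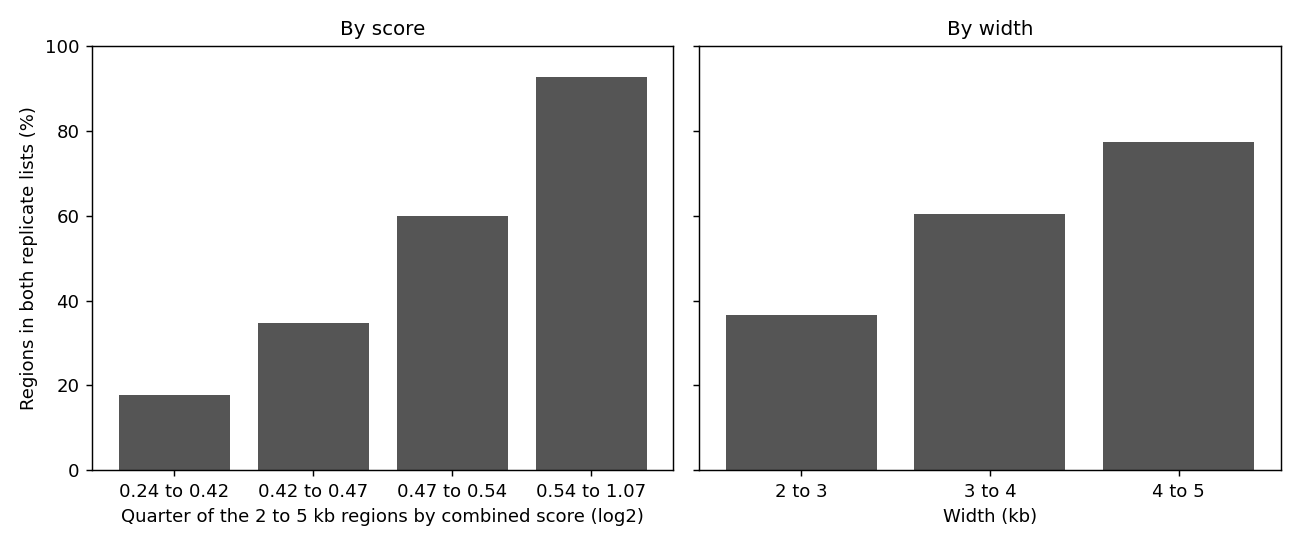
Bars give the share of combined regions of 2 to 5 kb on 2L, 3L and 3R that were in both replicate lists, in percent, by score class in log2 (left) and by width in kb (right). The share runs from 17.8% to 92.6% over the score classes and from 36.7% to 77.3% over the width classes.

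The highest-scoring members of each arm were all wider than the median member (3333 bp), and in both replicates a single region covered most of each. On 3L from 21666950 to 21671780 (4831 bp, score 1.07) replicate 1 covered 87.7% and replicate 2 covered 99.0%. The other leading 3L member, from 361708 to 365842 (4135 bp, score 1.06), was covered to 94.7% and 100% in replicates 1 and 2. On 3R, 3613 bp from 14849734 to 14853346 scored 0.99 and were covered to 94.3% and 95.9% in replicates 1 and 2. Also on 3R, 4545 bp from 11039576 to 11044120 scored 0.97. Here replicate 1 covered 99.2% and began 30 bp before the member, whereas replicate 2 covered 87.9%. On 2L the leading member ran from 8438102 to 8442956 (4855 bp, score 0.96), with 95.3% in replicate 1 and 96.5% in replicate 2. Next on 2L came 4905 bp from 2988306 to 2993210 (score 0.91), of which replicate 1 covered 77.7% and replicate 2 covered 90.3%. All 6 stood at or above the 98.6th score percentile of the combined list, and the replicates shared between 77.7% and 95.3% of their length. Scores of the counterparts were 1.01 to 1.21 in replicate 1 and 0.81 to 1.08 in replicate 2, each on its own list's scale.

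**Figure D2:**
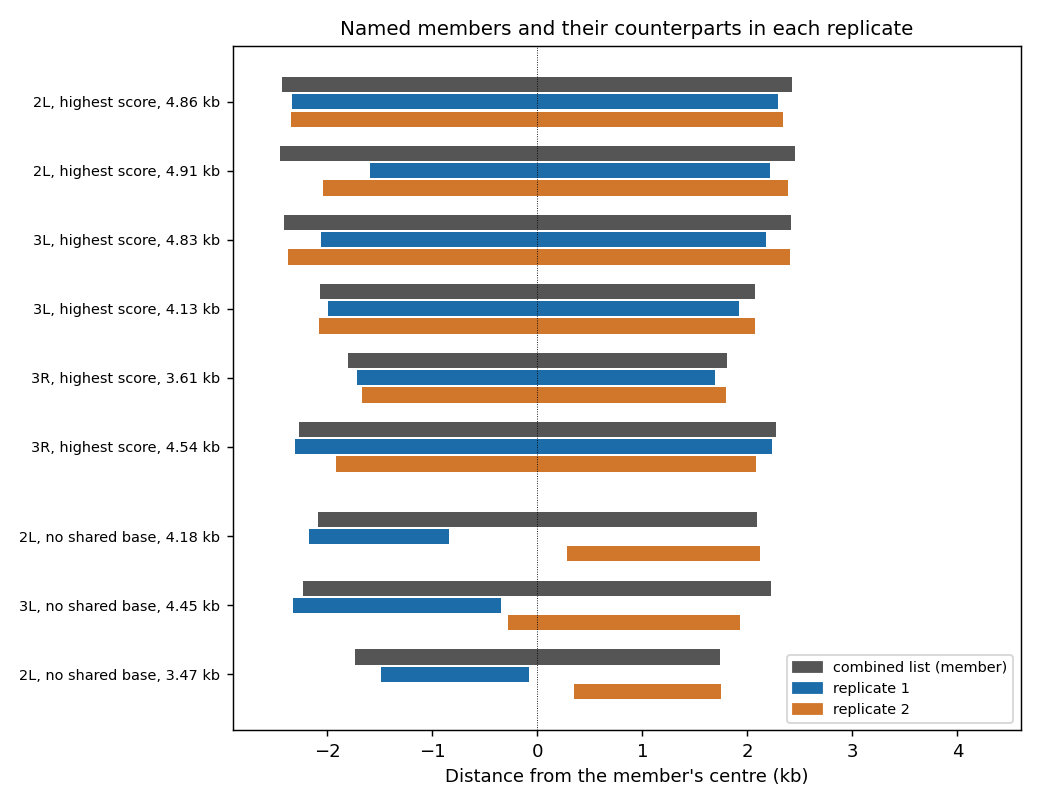
Horizontal bars show named members and their counterparts against the distance from the member's centre, in kb: the combined region in grey, replicate 1 in blue and replicate 2 in orange. In the 6 highest-scoring members the bars largely coincide. In the other 3 the replicates mark opposite ends with no base in common. These 3 were chosen for their share in both lists, not for a low score. They are the highest-scoring of the 40 members without a shared base (scores 0.65, 0.50 and 0.50).

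Each replicate covered most of the members' length. Replicate 1 covered 69.6% of their length and replicate 2 covered 72.8% (mean 71.2% ± 2.22, SD, n = 2). Both covered the same base over 55.8% of the length, or 2.85 Mb. A further 0.705 Mb lay in replicate 1 only, 0.866 Mb in replicate 2 only and 0.684 Mb (13.4%) in neither. For single members the share inside both lists at once had a median of 60.0% and quartiles of 41.7% and 76.2%. At least 50% of the member was covered by each replicate in 1108 members (73.9%). The rule asked for 1 bp, but no replicate region is narrower than 1301 bp, so a larger overlap is partly set by that minimum. No member was inside both lists over its whole length.

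The share covered fell as members grew wider. Members of 2 to 3 kb were covered to 77.1% ± 1.51, those of 3 to 4 kb to 70.5% ± 2.52 and those of 4 to 5 kb to 67.5% ± 2.46 (mean ± SD over 2 replicates). The fall was found in each replicate, with 76.0%, 68.7% and 65.7% in replicate 1 and 78.1%, 72.3% and 69.2% in replicate 2 from the narrow to the wide class. Replicate 2 was the higher in every class. In regions of 5 to 10 kb in both lists, replicate 1 covered 67.1% and replicate 2 covered 70.6%, close to the widest members. The fall did not go on with width, since regions of at least 10 kb in both lists were covered to 76.7% and 79.1%. A replicate region of the minimum width, 1301 bp, fills a larger part of a narrow member, and its part in this order was not tested. Higher-scoring members were covered further. In the 750 members at or above the median member score, 67.7% of the length was inside both lists, against 42.5% in the 750 below it. Median widths in these groups were 3562 bp and 3066 bp.

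**Figure D3:**
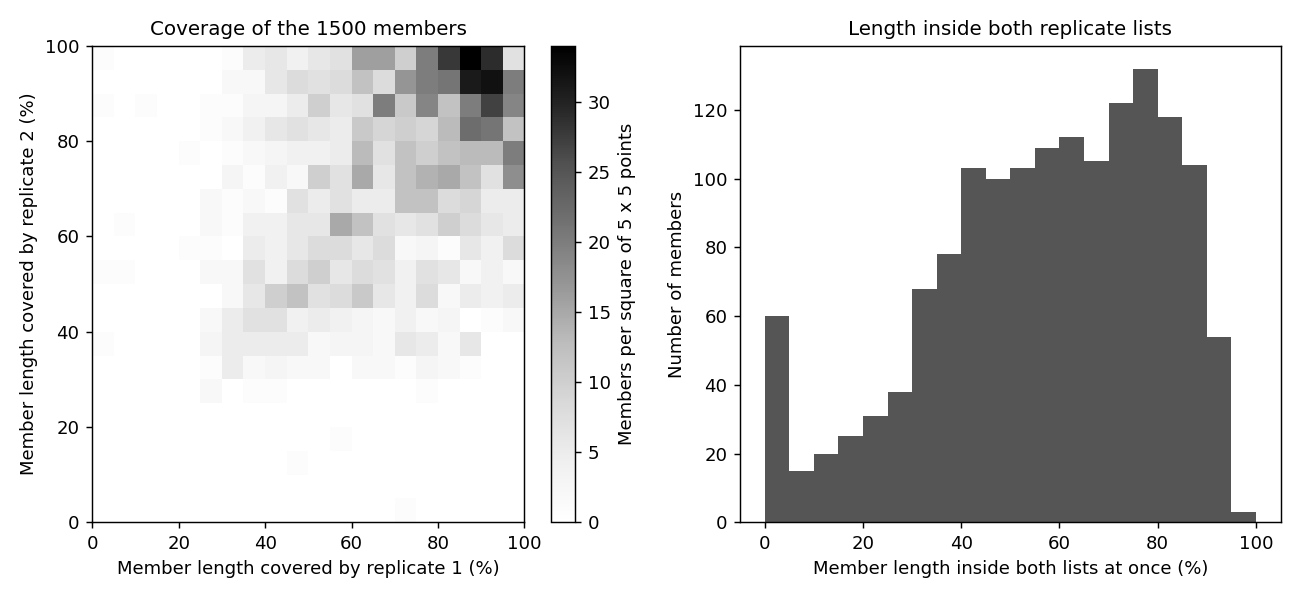
The left panel counts members by the share of their length covered by replicate 1 (x axis, %) and replicate 2 (y axis, %), darker squares holding more of the 1500 members. The right panel gives the number of members by the share inside both lists at once (%), with a median of 60.0% and a separate group at 0 that includes 40 members with no base in common.

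At the other extreme, 40 members (2.67%) had no base that both replicates covered, so the replicates met the same combined region at different places. Each of the 40 had exactly 1 counterpart in each list. They were wide and low-scoring, with a median width of 4048 bp and a median score of 0.43. In 27 of them the replicate 1 region lay at the lower coordinates and in 13 the replicate 2 region did. Between 2 and 1591 bp separated the counterparts, with a median of 385 bp. The highest-scoring case was on 2L from 13651448 to 13655626 (4179 bp, score 0.65). Here replicate 1 marked 13651366 to 13652700 and replicate 2 marked 13653821 to 13655660. On 3L from 14412476 to 14416928 (4453 bp, score 0.50) the replicates covered 42.2% and 49.6%, and on 2L from 2248760 to 2252228 (3469 bp, score 0.50) 40.5% and 39.8%. Members of this kind meet the rule without any base found in both replicates.

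The members with the largest share in both lists were among the high scorers. The share was 96.1% on 3R from 20014590 to 20019294 (4705 bp, score 0.75), 95.9% on 3L from 1302780 to 1307188 (4409 bp, score 0.81) and 95.3% in the leading 2L member at 8438102. Across all 1500 members, score and share in both lists had a Spearman's rho of 0.56, a description over regions that share libraries. The shares covered by replicate 1 and by replicate 2 had a rho of 0.32.

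Most members corresponded to a single region in each replicate. Exactly 1 counterpart was found for 1424 members (94.9%) in replicate 1 and 1412 (94.1%) in replicate 2, and for 1353 (90.2%) in both. The share fell with width, at 98.6%, 92.4% and 76.4% in the width classes from narrow to wide. Of the 1500 members, replicate 1 met 76 with at least 2 regions and replicate 2 met 88, and 17 members were divided in both lists. These 17 are a larger part of the 76 than the 88 are of all 1500. Divided members were wide in both lists, with median widths of 4227 and 4404 bp, and width was not held fixed in this count. The stretches between such pieces had medians of 295 bp in replicate 1 and 308 bp in replicate 2, and 50 of 77 and 58 of 89 were at most 500 bp. In each list, 1 member was met by 3 or more regions. Counted over both lists together, the members with the most pieces included 3 on 2L, each with 2 pieces in each replicate. They ran from 790416 to 795156 (4741 bp), from 5738330 to 5743130 (4801 bp) and from 7382264 to 7386668 (4405 bp). Their scores were 0.54, 0.49 and 0.55. Where a replicate divided a member, the other replicate covered a median of 65.1% (pieces in replicate 1) or 56.3% (pieces in replicate 2) of it.

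The counterparts were themselves narrower than the members and rarely part of a larger domain. The widest counterpart of a member had a median of 2112 bp in replicate 1 and 2200 bp in replicate 2, and it exceeded the member's own width in 55 and 61 members. A counterpart of at least 5 kb occurred for 4 members in replicate 1 and 6 in replicate 2, the widest being 10308 bp and 7733 bp. In 39 and 34 members the counterpart also reached into another combined region. Of the replicate regions on the 3 arms, 1571 of 4867 in replicate 1 (32.3%) and 1581 of 5310 in replicate 2 (29.8%) met a member. Their median scores of 0.65 and 0.61 were close to those of the remaining regions, 0.67 and 0.61. The best counterpart of the median member stood at the 43.3rd percentile of the replicate 1 list and the 46.3th of the replicate 2 list. Members were in the upper part of the combined list by score, and their counterparts near the middle of the replicate lists. These are ranks in unlike lists and are not compared. The combined list also holds regions that neither replicate list met, and those of 2 to 5 kb on the 3 arms had a median percentile of 29.3.

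Counterparts ended inside the members far more often than outside them. Where a member had 1 counterpart that met no other combined region, replicate 1 (1395 members) began inside the member in 87.8% and stopped inside it in 88.8%. For replicate 2 (1392 members) these shares were 88.1% and 87.8%. The median distance between the ends was 286 bp in replicate 1 and 250 bp in replicate 2 (mean 268 ± 25.5, SD, n = 2). In replicate 1 the median was 269 bp at the left end and 304 bp at the right end, and in replicate 2 it was 252 bp at the left and 246 bp at the right, so the end that lay farther off was not the same in both replicates. As a share of the region's width, the median distance was 9.32% and 7.87% in replicates 1 and 2. In regions of 5 to 10 kb in both lists it was 9.59% and 7.72%. In base pairs the distances of these wider regions were larger, with medians between 459 and 659 bp, while relative to width they were close to those of the members. Such a counterpart was found for 93.0% and 92.8% of the members but only for 60.6% and 59.1% of the wider regions.

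**Figure D4:**
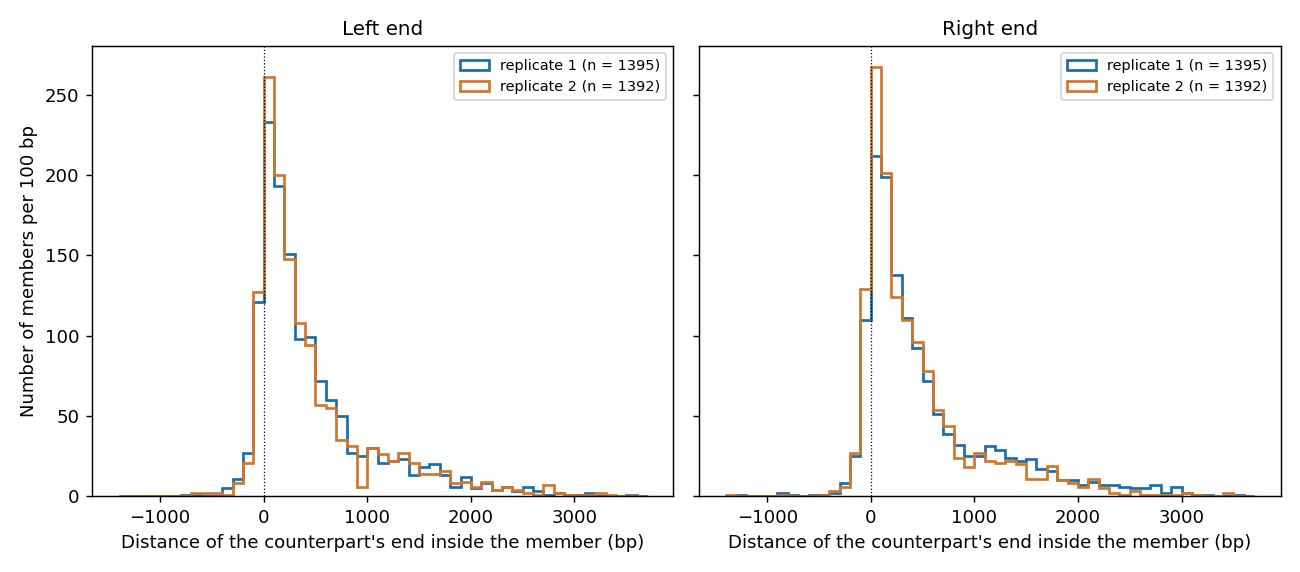
Lines count members per 100 bp by how far the counterpart's left or right end lay inside the member (x axis, bp; negative values lie outside), for replicate 1 in blue and replicate 2 in orange. Both lines peak between 0 and 100 bp at both ends and tail off inwards, with medians of 241 to 296 bp inside the member.

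The ends of the replicate regions lay farther from each other than from the ends of the combined region. Over 1306 members with such a counterpart in both lists, the left ends of the replicate regions were a median of 336 bp apart, the right ends 334 bp and the centres 289 bp. Centres lay within 250 bp of each other in 591 members (45.3%), and both ends within 100 bp in 56 (4.29%). The combined region exceeded both replicates at both ends in 735 members (56.3%). One replicate or the other came within 100 bp of the left end, or passed it, in 731 members (56.0%) and of the right end in 716 (54.8%). An end more than 1000 bp inside the member in one replicate was often nearer to the member's end in the other. On the left, 190 members had such an end in replicate 1 and 202 in replicate 2, with 59 in both, or 31.1% and 29.2% of each. On the right the counts were 244, 184 and 94 (38.5% and 51.1%). Among all members with such a counterpart in the given list, 15.8% of left ends in replicate 1 and 16.7% in replicate 2 were this deep. For right ends these shares were 19.6% and 14.9%. An end this deep in one replicate was this deep in the other more often than ends in general were. Width was not held fixed in this count. No replicate region is under 1301 bp, so narrow members have little room for such an end, and the part of width was not tested. Counterpart widths in the replicates had a rho of 0.51 with each other, and of 0.47 and 0.50 with the member's width. Counterparts seldom exceeded the member's width, so these relations are partly built in. All starts and ends of the combined list are even numbers, against 50.1% of starts in each replicate list, so distances of a few base pairs are below its resolution.

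The closest agreement of ends was found in members on 3L and 3R. On 3L from 1302780 to 1307188 the 4 end distances added up to 222 bp, with replicate 1 from 1302798 to 1307211 and replicate 2 from 1302840 to 1307067. The 3L member at 361708 followed with 233 bp, of which replicate 2 contributed 10 bp on the left and 2 bp on the right, both outside the member. On 3R from 22738614 to 22741450 (2837 bp, score 0.52) the sum was 235 bp. It stood at the 69.1th score percentile, below the other members named here for close ends.

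Within the members, the order of the scores was only partly shared between the replicates. The rho of the scores changed with the width limits, to 0.40 with limits moved inwards by 10% and 0.48 with limits moved outwards by 10%. Over 1353 members with 1 counterpart in each list, the scores of the counterparts had a Spearman's rho of 0.45 and their widths one of 0.49. The combined score had a rho of 0.68 with the best counterpart in replicate 1 and of 0.76 with that in replicate 2. The combined score was made from both libraries, so these relations are partly built in. The rho of the widths is partly built in as well, because counterparts seldom exceeded the member's width. By arm, the median counterpart score was 0.66 on 2L, 3L and 3R in replicate 1. In replicate 2 it was 0.60 on 2L, 0.62 on 3L and 0.61 on 3R.

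Members were found at similar density on the 3 arms. There were 21.1 members per Mb on 3R (588), 19.8 on 3L (487) and 18.5 on 2L (425), covering 7.18%, 6.82% and 6.19% of the arm. The share of 2 to 5 kb regions that were in both lists was 50.6% on 3R, 53.3% on 3L and 49.9% on 2L. Coverage by the replicates was 71.9% ± 2.01 on 3R, 71.0% ± 2.69 on 3L and 70.4% ± 1.98 on 2L (mean ± SD, n = 2). The share was highest on 3R in both replicates, with 70.5%, 69.1% and 69.0% in replicate 1 and 73.3%, 72.9% and 71.8% in replicate 2 on 3R, 3L and 2L. In replicate 1 the values of 3L and 2L were almost equal, and the arm means lay closer together than the SD of each arm. Median scores were 0.53, 0.53 and 0.51 on 3R, 3L and 2L. The arms are 3 in number and are not replicates, so no test was made between them.

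Along the arms the density of members was uneven, and it fell near the centromere on 2L and 3L but hardly on 3R. In the tenth of the arm next to the centromere there were 12.6 members per Mb on 2L, against 19.1 in the rest of the arm. On 3L there were 10.6 against 20.9, and on 3R 19.4 against 21.3. On 2L the seventh bin from the telomere was as sparse as the last, with 12.6 per Mb. On 3R the sparsest bin was the one next to the telomeric bin, with 14.3. The densest bins reached 23.9 on 2L in its telomeric bin, 25.7 on 3L in the neighbour of its telomeric bin, and 25.4 on 3R in the eighth. As a share of all combined regions in the bin, members made up 22.3% next to the centromere of 2L, against 17.0% elsewhere on that arm. The corresponding shares were 16.0% and 18.7% on 3L, and 19.1% and 18.7% on 3R. On 2L, therefore, members thinned out less near the centromere than combined regions as a whole. These are 29 of 130 regions in that bin of 2L. Assembly gaps and repeats that reads do not place were not analysed.

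**Figure D5:**
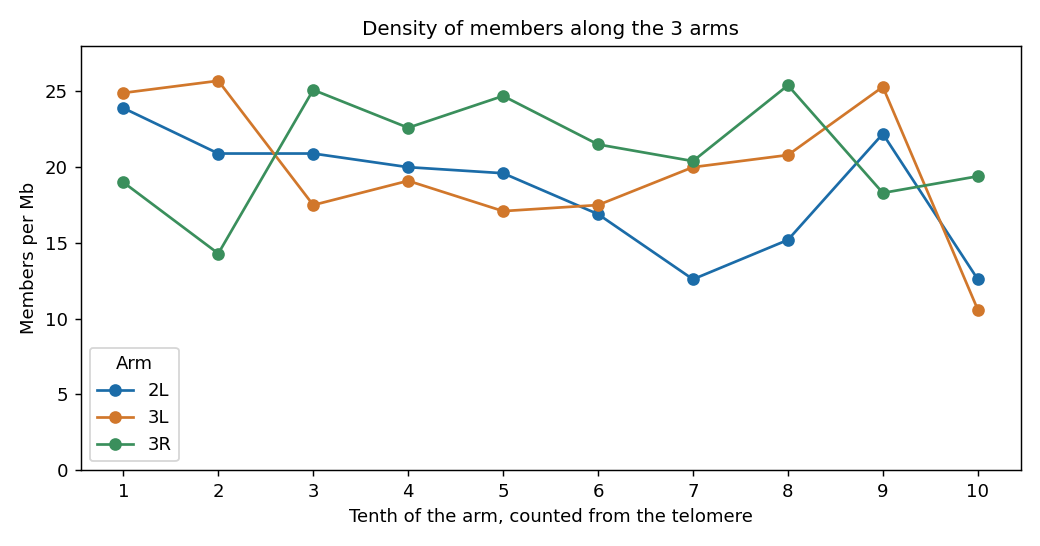
Points give members per Mb in 10 equal bins along each arm, counted from the telomere, for 2L in blue, 3L in orange and 3R in green. The last bin, next to the centromere, is at 12.6 on 2L and 10.6 on 3L, and at 19.4 on 3R.

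The number of members varied between windows of the arms, and members made up 18.3% of all combined regions on the 3 arms. Of 757 windows of 100 kb, 165 (21.8%) held no member, the median was 2 and 64 (8.45%) held at least 5. In 27 windows the combined list had no region at all. The most members, 8 in a window, were found on 2L from 2900001 to 3000000 and on 3R from 6900001 to 7000000. The 2L window had 15 combined regions in all. Its members were 2489 to 4905 bp wide and scored 0.44 to 0.91, and the replicates covered 64.9% and 74.4% of them. The 3R window had 26 combined regions, and its members scored 0.44 to 0.62. Next came 2L from 200001 to 300000 with 7 members among 17 regions, the leading one by position of 8 windows with that number. Members and other regions per window had a rho of 0.19 over the 757 windows, which are not independent.

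The nearest combined region lay a median of 771 bp away from a member (quartiles 252 and 1855 bp), and the nearest other member a median of 8530 bp. At most 500 bp separated 583 members (38.9%) from a neighbour, and 37 (2.47%) were more than 10000 bp from any. Of the neighbours on either side of a member, 23.5% were members and 18.3% were regions of at least 5 kb in both lists. In all regions of the 3 arms these classes made up 18.3% and 15.0%. Beside regions of 2 to 5 kb that were not in both lists, they made up 16.1% and 13.3%. Beside regions of 5 to 10 kb in both lists, they made up 22.5% and 20.2%. Members thus stood next to regions found in both replicates somewhat more often than the regions of their own width that were not in both lists did. Regions of 5 to 10 kb in both lists did so about as often as members. This is a count over neighbouring regions and was not tested. As neighbours in the list, 882 members (58.8%) stood alone, and 216 were in 64 runs of at least 3. The longest run, named after its values were seen, held 8 members in 79.8 kb on 2L from 10281490 to 10361246, with scores of 0.35 to 0.65.

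Replicates 1 and 2 covered 72.9% and 75.4% of the length of the 37 isolated members, against 69.5% and 72.7% for the other 1463. Their median width was 2797 bp, against 3337 bp, and narrower members were covered further in general. The farthest from any region was 2353 bp on 2L from 22962350 to 22964702, close to the centromeric end of the arm, with 68287 bp to its neighbour and a score of 0.50. Replicate 1 covered 86.4% of it and replicate 2 covered 95.8%. On 3L from 14553412 to 14556182 (2771 bp, score 0.58, 51289 bp to the next region) the shares were 90.9% and 97.4%. On 3L from 11125344 to 11127812 (2469 bp, score 0.50, 29779 bp away) they were 65.5% and 98.9%. The member farthest from any other member, also named after its values were seen, lay 368 kb away on 3L from 23709692 to 23711904. It scored 0.44, and the replicates covered 93.2% and 83.4%.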

How the data were processed

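Per the submitters' processing notes, reads were aligned with Bowtie 0.12.7. The authors deposited 3 lists of enriched regions, 1 per ChIP replicate and 1 for the combined replicates, on FlyBase release 5 per the file headers. Not given in the sources used here are the region caller, its threshold and how replicates were combined. The deposited score of each region has no stated unit and was read as log2: 2 to the power of score differences gave ratios of whole numbers (denominators up to 5000, relative tolerance 1e-11) for 96.9% to 99.9% of regions per list, against 0.518% to 1.18% on the natural log and log10 scales. Library depth is unknown, and no interval that would need it is given.

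Here, 1 depleted region was left out, and overlaps, widths (1-based), covered lengths, end distances and rank correlations were computed with Python 3.11.15, numpy 2.4.6 and pandas 2.3.3, with plots from matplotlib 3.10.9. A percentile is a rank within its list. The code was checked on simulated lists. Members, lists and alternatives were chosen with earlier results of these data known. Named regions are the leading 2 per arm by score, the 3 with the closest ends, the 3 highest and 3 lowest by share in both lists, those nearest each width limit, the 3 fullest windows of 100 kb, the 3 with most replicate regions and the 3 most isolated, with ties taken by position or score.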

Additional observations from a re-analysis of the deposited data

How the results depend on the processing

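The number of members, 1500, was within 1.5 times of itself under all 8 alternatives (1026 to 2153). The median end distance of 268 bp was within the spread between replicates in 8 of 9, the exception being 212 bp when 50% of the member had to lie in each replicate list. That rule also gave 67.3% of length in both lists, a score difference of 0.11, 92.4% with 1 counterpart in each list, a ratio of the densest to the sparsest arm of 1.12 (1.14 as reported), a median gap of 835 bp and a rho of replicate scores of 0.54. Width limits moved inwards by 10% gave a score difference of 0.10, 92.3%, 1.13, 817 bp and 0.40, and limits moved outwards by 10% gave 0.10, 87.7%, 1.11, 765 bp and 0.48. The higher-scoring 50% of combined regions gave 60.3% of length in both lists, 0.07, 90.9%, 1.10, 2395 bp and 0.38. Merging within 500 bp gave 91.0%, 1.08, 1534 bp and 0.50. The gap is wider in both of these by construction, since regions were removed or joined. Adding 2R gave 1.23, 809 bp and 0.44. The highest-scoring counterpart of every member gave a rho of 0.42. Without one replicate (overlap and coverage from the other alone), length covered was 68.8% to 71.4%, the score difference 0.07, members with 1 counterpart 95.0% to 95.1%, the arm ratio 1.14 to 1.16 and the gap 717 to 769 bp. The score difference stayed above 0 in all 7 alternatives that gave one. Each of them still selected regions by replicate overlap, so this sign is partly built in. Merged regions have no score of their own. Where not given by construction, the cause of a change was not tested. Unknown depth limits any reading of list sizes. No paired analysis was possible because input libraries enter only through the region calls.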
